A study of Mus musculus with 6 samples.

Results

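The 26 genes described here are the Hox and limb patterning genes, the transcription factors that give limb and skeletal cells their position. Rows of the deposited expression table were matched by symbol to a set of names, among them the Hox genes of clusters A to D. The other names were Prrx, Tbx, Pitx, Shox2, Meis, Pbx, Msx, Dlx, Emx2, Lmx1b, Hand2, Irx, Barx, Nkx3 and Twist genes and their close kin. The set of names was chosen with earlier results of these data known. The table held 10189 rows, of which 28 matched these names, and 2 antisense rows among them, Hoxa11os and Hoxd3os1, were left out. The mouse annotation lists 89 protein-coding genes with such names, so 26 of 89 had a row. The study compared cultured articular chondrocytes, the cells of joint cartilage, from C57BL/6 mice aged 5 weeks. The tested mice were global homozygous knockouts of miR-34a (miR-34a KO, n = 3 libraries) and the others were wild type (WT, n = 3 libraries); the labels give the same model name, Mir34atm1.2 Mrl, for both. Cartilage of knees and hips was pooled, so each library mixes the cells of more than 1 joint, and the cells were grown to confluence without treatment. The sources used here do not say whether each library came from 1 mouse, and p-values measure the spread between these libraries, which may be partly technical.

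Hox genes lie in clusters, and their order along a cluster follows the order in which they act along the body and along the limb. In the limb, Hox genes of paralogue groups 9 and 10 are known for the upper segment, group 11 for the middle segment and group 13 for hands and feet, while Pitx1 and Tbx4 mark the hindlimb and Tbx5 the forelimb. Adult connective tissue cells, cultured fibroblasts and chondrocytes among them, are known to keep part of this positional pattern. Meis and Pbx proteins are partners that bind DNA together with Hox proteins.

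The microRNA missing in KO cells acts by pairing its seed, bases 2 to 8, with messenger RNAs. The sequences below, from RefSeq (GRCm38.p6), are shown because other mature mouse microRNAs share that seed, the 3 printed after it among them, so that a match names the family and not miR-34a alone. Capitals mark the seed, and miR-34a-5p lies at chr4:150068473-150068494 on the plus strand.
mmu-miR-34a-5p: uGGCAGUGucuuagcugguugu
mmu-miR-34b-5p: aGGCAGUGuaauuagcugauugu
mmu-miR-449a-5p: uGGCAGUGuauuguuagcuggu
mmu-miR-449c-5p: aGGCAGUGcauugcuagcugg
A further microRNA of the HoxA cluster, miR-196b-5p, lies at chr6:52230129-52230150 on the minus strand, inside an exon of Hoxa9, and has another seed.
mmu-miR-196b-5p: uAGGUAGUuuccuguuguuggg

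Matches to the miR-34a seed were sparse among the patterning genes. In the longest annotated 3′ UTR (GENCODE M21, mm10), 1 of 26 genes (3.85%) held a match to bases 2 to 8, against 17.9% of 9339 genes of the table. A match to bases 2 to 7 was found in 3 of 26 (11.5%), against 35.4%. The median 3′ UTR had 1012.5 bases among the patterning genes and 1261 bases among the genes of the table, and no adjustment for length was made. The matches of Meis1 and Shox2 to bases 2 to 7 are printed with the matching bases in capitals, both on the minus strand of mm10, at chr11:18884183-18884203 for Meis1 and chr3:66973519-66973539 for Shox2.
Meis1: tgcaatatcttACTGCCtctc
Shox2: cttccccgctgACTGCCgcct
A match is a description of these letters and not a measured binding site.

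From the deposited values, TMM-normalized CPM (read counts scaled by library size and a library factor), 989217 to 5266617 reads per library were recovered. In WT 1, 59.1% of reads lay on Rn45s and 18.8% on Lars2, and without these and Mir6236 the libraries held 947081 to 1772185 reads. No row is named Mir34a, and the genotype could not be checked from these values. Of the chondrocyte markers 13 of 17 had a row, as did 13 of 13 markers of macrophages and leukocytes. No skeletal muscle marker of 7 had a row.

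The Hox genes with a row came mostly from clusters A and C. Of the 39 mouse Hox genes, 10 had a row: Hoxa2, Hoxa3, Hoxa9, Hoxa10 and Hoxa11 of cluster A, Hoxc8, Hoxc9, Hoxc10 and Hoxc11 of cluster C, and Hoxd8 of cluster D. None of the 10 HoxB genes, none of the 6 Dlx genes and neither Msx1 nor Msx2 had a row, and 1 of 9 HoxD genes did. Pitx1, the hindlimb factor, had a row, and Tbx4, Tbx5, Lmx1b, Emx2, Meis2, Nkx3-2, Twist2, Hoxa13, Hoxd9, Hoxd10, Hoxd11 and Hoxd13 had none. A gene without a row has no value here, since the table was filtered: in each row the second highest value was at least 7.35 CPM.

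Levels of different genes can be set side by side only per length of exon. By CPM per kilobase, averaged over the 6 libraries, Hoxa2, a gene of hindbrain and second-arch identity, was highest at 21.7, followed by Hoxa10 at 18.6, Tbx15 at 15.1, Shox2 at 14.7 and Twist1 at 13.8. Neighbours among these 5 did not separate beyond their spread: Hoxa2 had 20.1 ± 4.44 CPM per kilobase in KO and 23.3 ± 6.65 in WT, and Hoxa10 had 20.7 ± 9.25 in KO and 16.6 ± 2.03 in WT (SD, n = 3 each). Tbx15 had 16.0 ± 7.16 CPM per kilobase in KO and 14.2 ± 4.69 in WT, Shox2 had 14.5 ± 1.40 in KO and 14.9 ± 4.09 in WT, and Twist1 had 14.3 ± 3.05 in KO and 13.2 ± 2.73 in WT (SD, n = 3 each). After Hoxc10 at 8.58 and Barx1 at 7.93 the other genes named here lay between 0.680 (Meis1) and 6.95 (Prrx1) CPM per kilobase, the mean of Barx1 including 1 value listed at 0. The order takes each row as named, and it would differ if the reads of Hoxa11 lay in the row of its antisense gene. Lengths are of all annotated exons of a gene, which lowers the value of genes with many isoforms.

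**Figure D1:**
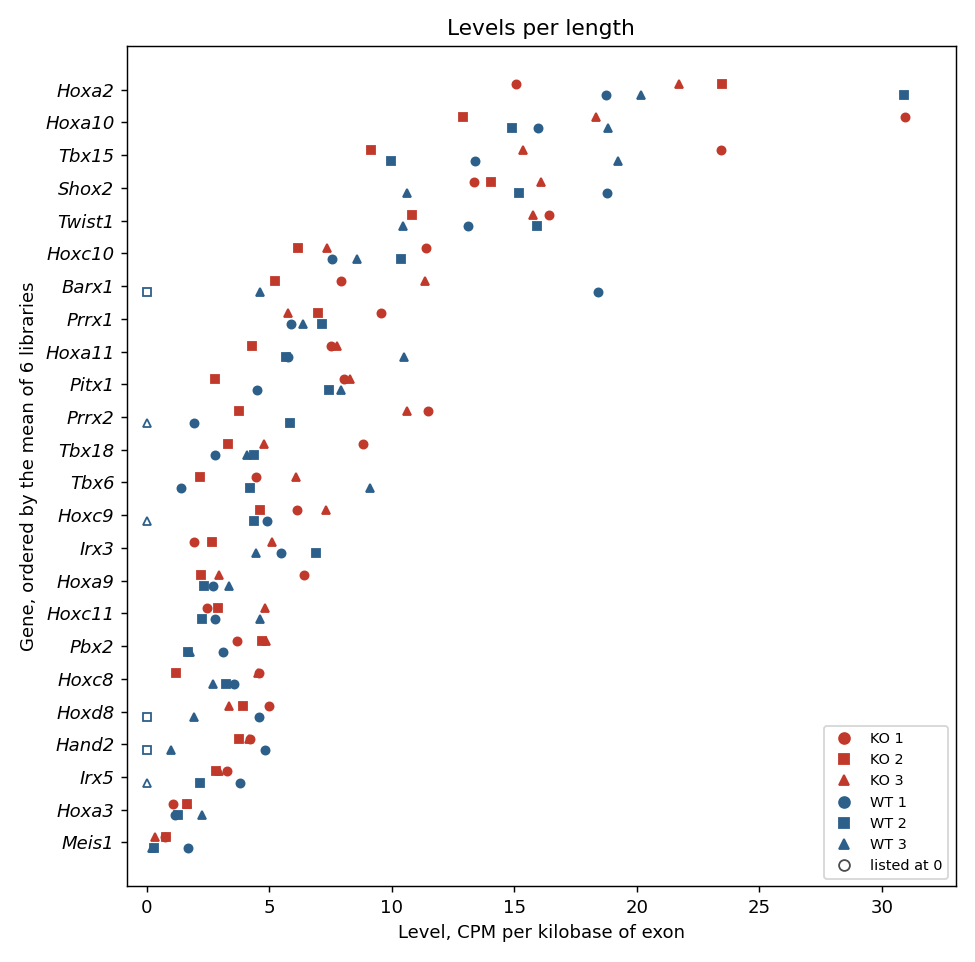
Level of 24 patterning genes in CPM per kilobase of exon in KO and WT libraries, 1 point per library, with genes ordered by their mean over 6 libraries. Hoxa2 and Hoxa10 lead at 21.7 and 18.6 CPM per kilobase, and the KO and WT points of the leading genes overlap.

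No patterning gene was called different between genotypes. The 3 KO and 3 WT libraries were compared with limma on log2(CPM + 0.5), and 0 of 26 genes were called higher or lower at an adjusted p below 0.05, against 0% of all 10189 genes called higher and 0.00981% called lower. At an unadjusted p below 0.05, 1 of 26 was higher in KO (Pbx2) and 0 were lower, against 4.64% and 6.4% of all genes. The KO values lay above all WT values in 1 of 26 genes and below them in 0, against 8.82% and 9.57% of all genes. On the recovered reads, edgeR with its quasi-likelihood test, limma-voom and DESeq2 also called 0 of 26; at an unadjusted p below 0.05 edgeR counted 1 gene higher, limma-voom 1 lower (Irx3) and DESeq2 0, and DESeq2 gave an adjusted p for only 5 of the 26. These shares are near or below the background of the table.

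The CPM added before the log can draw the fold change of a low gene toward 0 where all its values are above 0. That of Pbx2 was 1.05 with 0.1 CPM added and 0.89 with 2 CPM. That of Tbx6 went past 0, from 0.041 to -0.017. The limma fold changes of such genes were not smaller throughout than those of edgeR. They were -0.85 against -0.81 for Irx3, 1.01 against 1.00 for Pbx2 and 0.26 against -0.19 for Meis1. Where 1 value is listed at 0 the limma fold change came out larger than that of edgeR, 2.41 against 1.78 for Prrx2, 1.86 against 0.97 for Hoxc9 and 1.34 against 0.064 for Barx1. The lack of a call does not show that levels were equal. On the log2 scale 18 genes (69.2%, against 51.4% of all genes) had a positive fold change of KO over WT, and 8 a negative. The median was 0.14, against 0.02 over all genes. The 18 include all 7 genes with a value listed at 0 in 1 WT library. For 8 of 26 genes the 95% limma interval stayed within a 2-fold change in either direction (1 log2 unit), and for 18 it reached beyond. By family, the median log2 fold change was -0.06 for the 5 HoxA genes, -0.0014 for the 4 HoxC genes, 0.07 for the 4 T-box and Pitx1 genes and 0.76 for the 4 mesenchyme homeobox genes. With values listed at 0 treated as missing, the last was 0.084. The 2 basic helix-loop-helix genes had a median of 1.04, or 0.45 with such values missing. The 1 HoxD gene had 1.79, or 0.41 with such values missing. In bulk RNA, fewer cells of a type and less RNA per cell cannot be told apart.

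**Figure D2:**
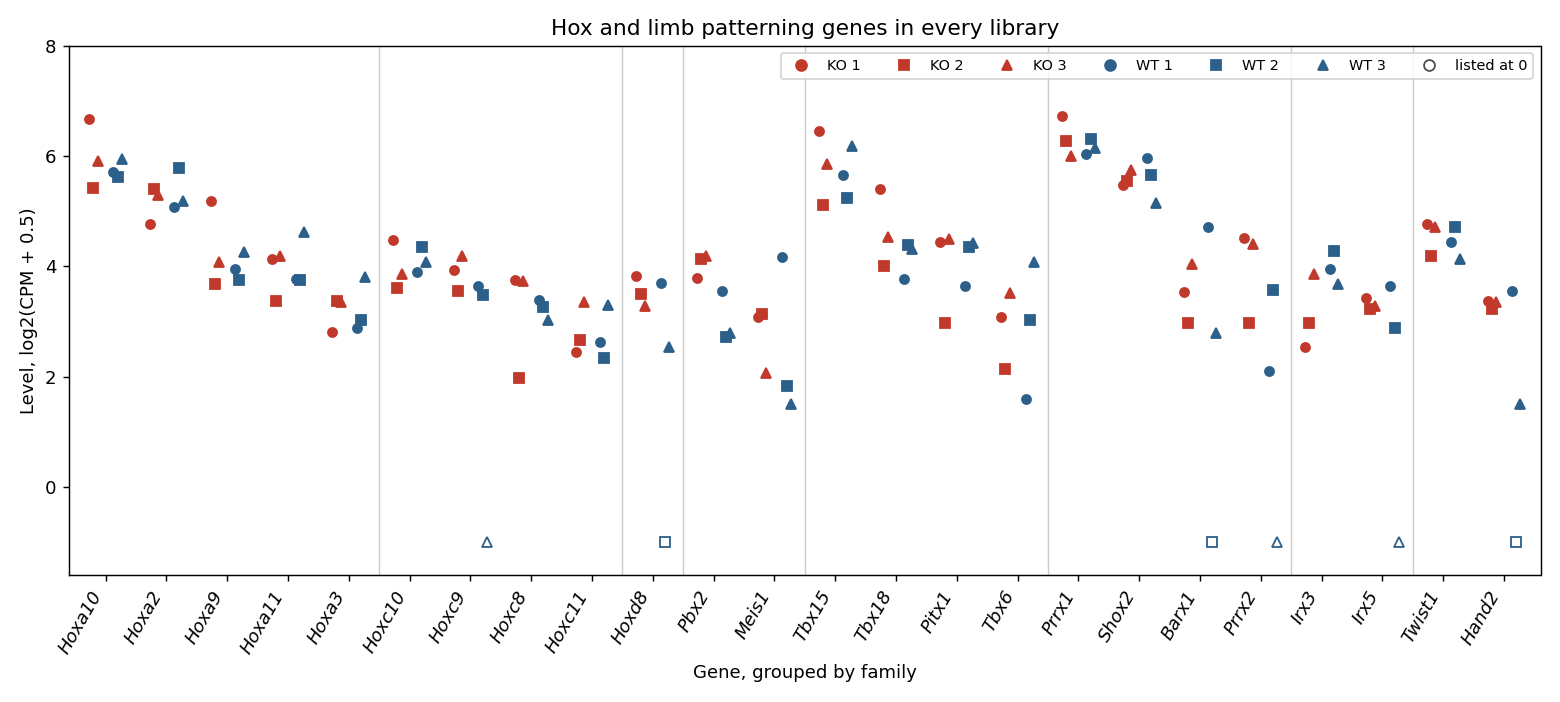
Level of 24 of the genes as log2(CPM + 0.5) in each KO and WT library, grouped by family, with open points for values listed at 0. KO and WT points overlap for 23 genes, Pbx2 being the exception, and the 6 open points are all WT.

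Among the partner proteins of Hox factors, Pbx2, a TALE homeodomain protein that pairs with Hox proteins, was the 1 gene without overlap. It had 13.4, 17.1 and 17.7 CPM in KO 1 to KO 3, against 11.3, 6.09 and 6.45 CPM in WT 1 to WT 3. These levels rest on 29 to 35 reads in KO and 8 to 18 reads in WT libraries. Each KO library was above each WT library, WT 1 being nearest, but the log2 fold change of 1.01 (limma SE 0.43, 95% interval 0.05 to 1.98) had an adjusted p of 0.432. Pbx2 lies at chr17:34591266-34597400 on the plus strand, and 227 bases of its exons overlap exons of Gpsm3 on the same strand. Gpsm3, a gene of leukocytes, had 6.49, 43.6 and 13.5 CPM in KO and 21.4, 31.2 and 25.8 CPM in WT libraries, and its part in the Pbx2 values was not tested.

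Meis1, a marker of the proximal limb, had 8.01, 8.33 and 3.67 CPM in KO and 17.6, 3.05 and 2.35 CPM in WT libraries. Its highest value was in WT 1, its lowest in WT 3, and the log2 fold change was 0.26 (limma SE 0.87, adjusted p = 0.923).

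The HoxA genes are on the minus strand of chromosome 6 (mm10), between 52162417, the 3′ end of Hoxa2, and 52245810, the start of Hoxa11. Hoxa10, known for the upper limb segment, had 101, 42.1 and 59.9 CPM in KO 1 to KO 3, against 52.1, 48.8 and 61.6 CPM in WT 1 to WT 3. Hoxa9, its neighbour in the same role, had 35.9, 12.2 and 16.5 CPM in KO and 15.1, 12.95 and 18.8 CPM in WT libraries. In both genes KO 1 was highest and KO 2 lowest, with WT libraries between them. The log2 fold changes were 0.23 (limma SE 0.31, adjusted p = 0.791) for Hoxa10 and 0.32 (limma SE 0.43, adjusted p = 0.790) for Hoxa9, and without KO 1 they were -0.10 and -0.11.

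Hoxa11, of the middle limb segment, and the anterior genes Hoxa2 and Hoxa3 had lower mean values in KO than in WT. Hoxa11 had 17.2, 9.80 and 17.7 CPM in KO 1 to KO 3, against 13.2, 12.95 and 24.0 CPM in WT 1 to WT 3, with a log2 fold change of -0.15 (limma SE 0.41, adjusted p = 0.907). Hoxa2 had 26.7, 41.6 and 38.5 CPM in KO and 33.3, 54.9 and 35.8 CPM in WT libraries, with a log2 fold change of -0.20 (limma SE 0.29, adjusted p = 0.809). KO 2 and WT 2 were highest in their group for Hoxa2, the reverse of KO 2 in Hoxa10, and the groups overlap in both genes. Hoxa3, a gene of the pharyngeal arches, averaged 8.69 ± 1.91 CPM in KO and 9.34 ± 3.61 CPM in WT (SD, n = 3 each).

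Antisense transcription is a limit for Hoxa11 and Hoxa3. The antisense gene Hoxa11os overlaps 800 exon bases of Hoxa11 on the other strand and had 169, 89.7 and 261 CPM in KO, against 139, 196 and 245 CPM in WT libraries, with a log2 fold change of -0.25 (limma SE 0.37, adjusted p = 0.809). It stood at 9.15 to 15.1 times Hoxa11 in CPM in the 6 libraries. The sources used here do not say whether the counting used the strand, so reads of this pair could not be told apart with certainty. Tsix, which lies opposite Xist, was likewise 8.12 to 16.5 times Xist. The kit was stranded, and counting it with the opposite setting would give the reads of a gene to its antisense partner; whether this happened was not tested, and it would touch every gene and not just those with an overlap. With the CPM of Hoxa11os in place of that of Hoxa11, over the exons of Hoxa11, the mean over the 6 libraries would be 80.1 CPM per kilobase. That is above Hoxa2, whose own row was left as it is. Hoxa3 shares 1529 exon bases with genes on the other strand, Hoxaas2 and Hoxaas3 among them. In all, 8 of 26 genes share exon bases with an opposite gene, Hand2, Irx3, Meis1, Pitx1, Shox2 and Tbx18 being the others.

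The HoxC genes, which in the mouse limb are known mainly from the hindlimb, lie on the plus strand of chromosome 15 between 102954427 and 102994111. Hoxc10 had 21.8, 11.8 and 14.1 CPM in KO 1 to KO 3, against 14.4, 19.8 and 16.4 CPM in WT 1 to WT 3. Hoxc8, a gene of the trunk, had 12.98, 3.43 and 12.8 CPM in KO and 10.1, 9.14 and 7.62 CPM in WT libraries. KO 2 was the lowest library for both, and KO 1 the highest. The log2 fold changes were -0.12 (limma SE 0.36, adjusted p = 0.913) for Hoxc10 and -0.08 (limma SE 0.60, adjusted p = 0.967) for Hoxc8. Hoxc11, a middle-segment gene, averaged 6.88 ± 2.56 CPM in KO and 6.54 ± 2.52 CPM in WT (SD, n = 3 each).

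Hoxc9 and Hoxd8 each had a value listed at 0 in a WT library. Hoxc9 had 14.9, 11.3 and 17.7 CPM in KO, against 11.9, 10.7 and 0 CPM in WT libraries. Hoxd8, the 1 HoxD gene with a row, had 13.7, 10.8 and 9.18 CPM in KO, against 12.6, 0 and 5.28 CPM in WT libraries. The log2 fold changes of 1.86 (limma SE 1.13, adjusted p = 0.553) and 1.79 (limma SE 1.12, adjusted p = 0.567) became 0.34 and 0.41 with these values treated as missing. Hoxc10 shares 166 exon bases with Hoxc5 on the same strand, and Hoxa2 and Hoxa3 share 267 and 482 with Gm28308, so reads could be split between them.

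With each row as named, the make-up of the Hox transcripts spread over a wider range in KO than in WT libraries, a width set by KO 1. The 10 Hox genes summed to 255.7, 158.7 and 206 CPM in KO 1 to KO 3, against 175, 181 and 192 CPM in WT 1 to WT 3. Per kilobase, genes of groups 9 to 11 made up 71.6%, 52.2% and 60.9% of the Hox level in KO, against 58.6%, 53.0% and 63.0% in WT libraries. Hoxa2 alone made up 16.6%, 37.1% and 27.2% in KO, against 27.7%, 41.0% and 27.6% in WT libraries. KO 1 had the most posterior make-up and KO 2 the least among the KO libraries. Between KO 2 and KO 3 alone, neither share differed by more than it did among the WT libraries. These values count Hoxd8 in WT 2 and Hoxc9 in WT 3 as 0. Over the 8 Hox genes never listed at 0, the sums were 227, 137 and 179 CPM in KO, against 151, 171 and 187 CPM in WT libraries, and the share of groups 9 to 11 was 73.9%, 51.9% and 59.7% in KO, against 59.7%, 50.1% and 64.7% in WT libraries. With the CPM of Hoxa11os in place of that of Hoxa11, the share of groups 9 to 11 over the 10 genes would be 83.6%, 69.2% and 83.2% in KO, against 77.2%, 77.2% and 84.1% in WT libraries. Only Hoxa11 was replaced there, and the other Hox rows, Hoxa3 among them, were left as they are.

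The hindlimb factor Pitx1 had 21.4, 7.35 and 22.0 CPM in KO 1 to KO 3, against 11.9, 19.8 and 21.1 CPM in WT 1 to WT 3. KO 2 was lowest and the groups overlap, with a log2 fold change of -0.17 (limma SE 0.48, adjusted p = 0.911). Tbx15, a T-box factor known for limb and shoulder skeleton, had 87.8, 34.3 and 57.5 CPM in KO and 50.3, 37.3 and 72.1 CPM in WT libraries, with a log2 fold change of 0.12 (limma SE 0.37, adjusted p = 0.917). Its close relative Tbx18 had 41.6, 15.7 and 22.6 CPM in KO and 13.2, 20.6 and 19.3 CPM in WT libraries, with a log2 fold change of 0.49 (limma SE 0.40, adjusted p = 0.646). KO 1 was the highest library for both T-box genes. Tbx6, a gene of the early paraxial mesoderm, averaged 7.65 ± 3.56 CPM in KO and 8.85 ± 7.03 CPM in WT (SD, n = 3 each).

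Of the homeobox genes of limb mesenchyme, Prrx1, which marks limb bud mesenchyme, was well measured. It had 106, 77.4 and 63.6 CPM in KO 1 to KO 3, against 65.3, 79.2 and 70.4 CPM in WT 1 to WT 3. Shox2, needed for the upper limb bones in mice, had 44.3, 46.5 and 53.2 CPM in KO and 62.2, 50.3 and 35.2 CPM in WT libraries. The groups overlap in both genes, and the 3 KO values of Shox2 lie inside the WT range. The log2 fold change of Prrx1 was 0.17 (limma SE 0.24, adjusted p = 0.799, interval -0.36 to 0.70), and that of Shox2 was -0.0019 (limma SE 0.26, adjusted p = 0.998, interval -0.59 to 0.59).

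Prrx2, the paralogue of Prrx1, had the largest fold change of the 26 genes and it too was not called. It had 22.5, 7.35 and 20.8 CPM in KO 1 to KO 3, against 3.77, 11.4 and 0 CPM in WT 1 to WT 3. KO 2 was below WT 2, and the log2 fold change of 2.41 (limma SE 1.11, adjusted p = 0.464) became 1.13 (SE 0.65) with the value listed at 0 treated as missing. Barx1, a homeobox gene of facial, tooth and stomach mesenchyme, had 11.1, 7.35 and 15.9 CPM in KO and 25.8, 0 and 6.45 CPM in WT libraries. Its highest and lowest values were both WT, and its log2 fold change was 1.34 (limma SE 1.25, adjusted p = 0.685), or -0.24 with the value listed at 0 treated as missing.

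Irx3 had the most negative fold change. The Iroquois genes Irx3 and Irx5 are known for the early hindlimb bud. Irx3 had 5.34, 7.35 and 14.1 CPM in KO 1 to KO 3, against 15.1, 19.05 and 12.3 CPM in WT 1 to WT 3. KO 3 was above WT 3, so the groups overlap, and the log2 fold change was -0.85 (limma SE 0.47, adjusted p = 0.522, interval -1.91 to 0.22). Irx5 had 10.3, 8.82 and 9.18 CPM in KO and 11.9, 6.86 and 0 CPM in WT libraries. Its log2 fold change of 1.47 (limma SE 1.15, adjusted p = 0.629) became 0.052 with the value listed at 0 treated as missing.

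The basic helix-loop-helix genes gave no call either. Twist1, a factor of mesenchyme that restrains bone formation, had 26.7, 17.6 and 25.7 CPM in KO 1 to KO 3, against 21.4, 25.9 and 17.0 CPM in WT 1 to WT 3, with a log2 fold change of 0.12 (limma SE 0.31, adjusted p = 0.902). Hand2, which acts ahead of Shh in the posterior limb bud, had 9.92, 8.82 and 9.79 CPM in KO and 11.3, 0 and 2.35 CPM in WT libraries. The KO libraries were close together and inside the WT range. The log2 fold change of Hand2 was 1.96 (limma SE 1.15, adjusted p = 0.541), and 0.79 (SE 0.66) with the value listed at 0 treated as missing.

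The 7 largest positive fold changes belonged to the 7 genes with a value listed at 0 in 1 WT library. Among them, WT 2 was at 0 for Barx1, Hoxd8 and Hand2, and WT 3 for Prrx2, Hoxc9 and Irx5, while no KO library was at 0 for any of the 26. This pattern held for 26.9% of the patterning genes and for 4.10% of all rows, shares that were not matched for level. A mean of at least 20 CPM was reached by 7 of the 26 genes and by 6115 of all 10189 rows. Genes used by every cell were listed at 0 in the same libraries, Polr2g, Polr2h, Psmd9, Snrpd3 and Suclg1 in WT 2 and Snrpf in WT 3, so the patterning genes are described only as listed at 0. With values listed at 0 treated as missing, the median log2 fold change of the 26 genes was 0.06 and that of the 7 genes was 0.34, against 1.79 for the 7 as deposited. The 19 genes never listed at 0 had a median of 0.03, with 11 positive and 8 negative.

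**Figure D3:**
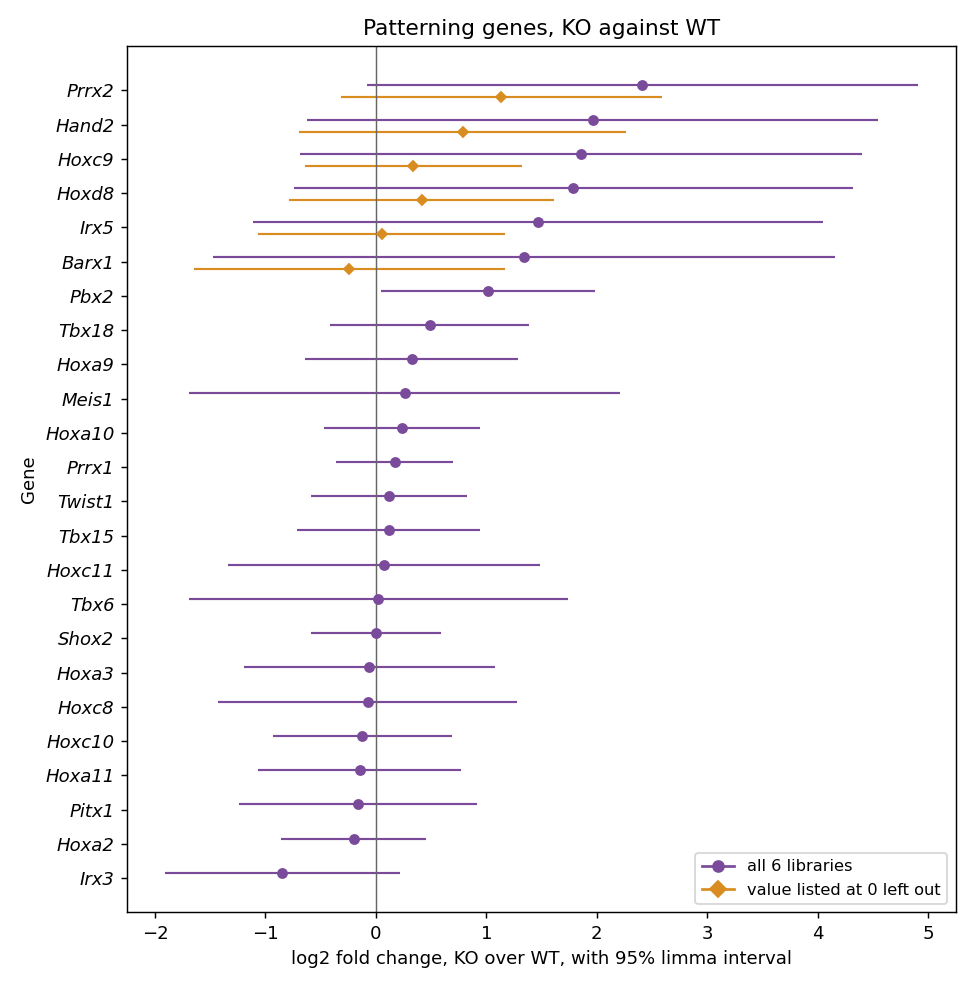
Log2 fold change of KO over WT for 24 of the genes with its 95% limma interval, and diamonds for the 6 genes refitted with the value listed at 0 treated as missing. Of the 24 intervals over all 6 libraries, 23 include 0, and the diamonds lie nearer 0 than the circles of the same gene.

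KO 1 was often the highest and KO 2 often the lowest library. Of the 19 genes never listed at 0, KO 1 was the highest library in 8 (42.1%, against 20.2% of all such genes of the table), and KO 2 was the highest in 0 and the lowest in 7 (36.8%, against 20.4%). KO 1 was highest and KO 2 lowest in the same gene for 5 of the 19, and KO 1 was itself lowest in 3 (Irx3, Hoxa2 and Hoxa3). The median deviation of these 19 genes from their own mean on the log2 scale was 0.27, -0.39 and 0.15 in KO 1 to KO 3, against -0.16, -0.01 and 0.03 in WT 1 to WT 3. The libraries were not labelled by batch, and these counts are descriptions with no test.

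Markers of other cell types differed between the same libraries. Chondrocyte markers (13 of 17) summed to 6921, 3841 and 4026 CPM in KO 1 to KO 3, against 3827, 2794 and 2478 CPM in WT 1 to WT 3. Macrophage and leukocyte markers (13 of 13) summed to 1032, 15015 and 3411 CPM in KO, against 6110, 5703 and 5159 CPM in WT libraries, so that KO 1 was lowest and KO 2 highest. Lyz2 alone made up 594, 12165 and 1757 CPM in KO, against 4139, 3326 and 3649 CPM in WT, and without it the sums were 437, 2850 and 1653 CPM in KO, against 1971, 2377 and 1510 CPM in WT libraries. Endothelial markers (2 of 6 with a row) summed to 0, 43.6 and 0 CPM in KO, with Pecam1 and Cdh5 at 0 in KO 1 and KO 3, against 11.3, 19.8 and 34.0 CPM in WT libraries. Their part in the patterning gene values was not tested. Osteoblast markers (6 of 8) summed to 3219 to 4145 CPM in KO and 963 to 2444 CPM in WT libraries, with Bglap and Bglap2 at 0 in all 3 WT libraries. Ibsp carried the difference in the sum: the other 5 summed to 510, 591 and 531 CPM in KO, against 586, 785 and 437 CPM in WT libraries. By gene, 5 of the 6 had a positive log2 fold change, with a median of 1.40 over the 6. That median counts Bglap at 4.01 and Bglap2 at 4.35, whose sizes depend on the 0.5 CPM added to WT values at 0. Ibsp, Sp7 and Alpl had 1.84, 0.95 and 0.54. Col1a1, the largest in CPM of the markers other than Ibsp, was the 1 negative gene at -0.54. Neutrophil markers (3 of 7) summed to 3.05 to 5.51 CPM in KO, with S100a8 and S100a9 listed at 0, and to 76.2 to 87.3 CPM in WT libraries. The markers at 0 carry the same limit as the patterning genes and are described only as listed at 0. Mural markers (6 of 8) summed to 122 to 289 CPM in KO and 356 to 526 CPM in WT libraries. Acta2 had the highest mean of these. Without it the mural sums were 62.2, 96.5 and 91.8 CPM in KO, against 134, 131 and 130 CPM in WT libraries. Of the 6 mural markers 5 had a negative fold change, and Cspg4 had a positive one (log2 fold change 1.12). Fibroblast and tendon markers (5 of 8) summed to 1823 to 2600 CPM in KO and 2876 to 4615 CPM in WT libraries. Proliferation markers (8 of 8) summed to 780 to 1078 CPM in KO and 1489 to 1751 CPM in WT libraries. The fibroblast and tendon sum was mostly Col3a1; without it the other 4 summed to 413, 249 and 323 CPM in KO, against 249, 90.7 and 269 CPM in WT libraries, and 3 of the 5 (Ly6a, Pdgfra and Dpt) had positive fold changes. The median log2 fold change of the 26 genes was 0.03 without KO 1, 0.44 without KO 2 and 0.50 without KO 2 and WT 1.

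**Figure D4:**
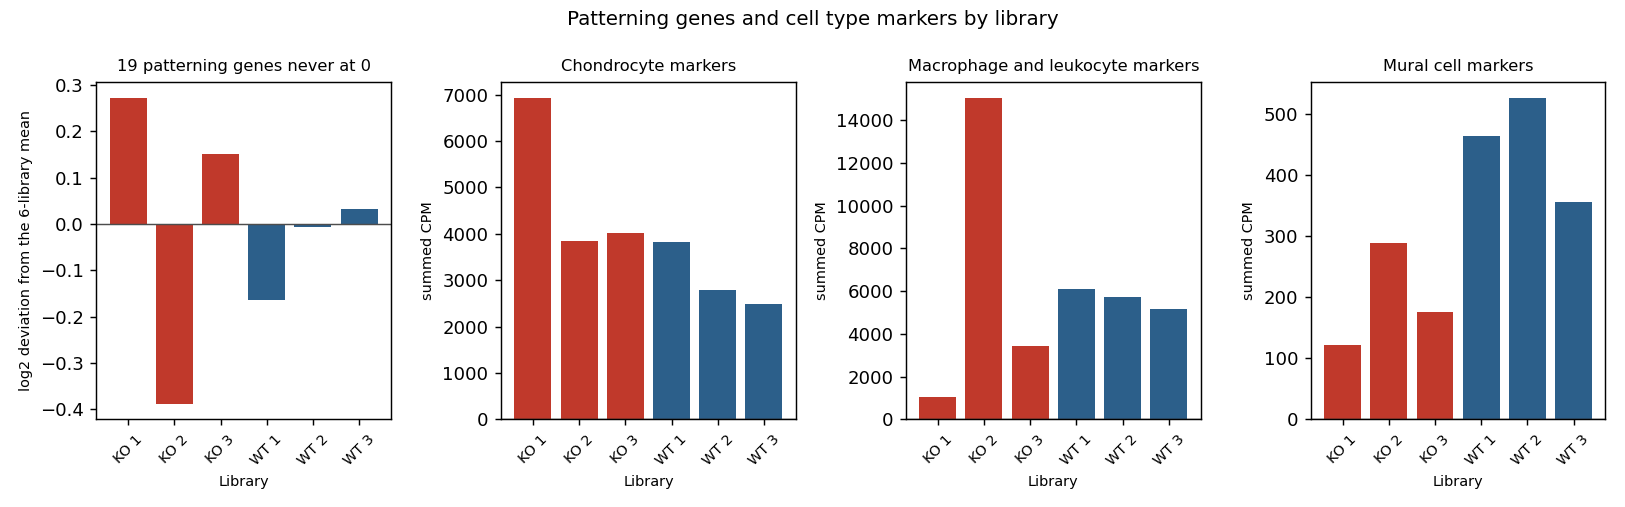
Median deviation of the 19 patterning genes never listed at 0 (log2 units) and summed levels of chondrocyte, macrophage and leukocyte, and mural cell markers (CPM) in each KO and WT library. KO 1 has the highest patterning gene deviation at 0.27 with 1032 CPM of macrophage and leukocyte markers, and KO 2 the lowest at -0.39 with 15015 CPM, of which 12165 CPM were Lyz2. Chondrocyte markers were at 6921 CPM in KO 1 and 3841 CPM in KO 2, against 2478 to 3827 CPM in WT libraries. Mural markers were at 122 CPM in KO 1 and 289 CPM in KO 2, against 356 to 526 CPM in WT libraries.

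The promoters of these genes were searched for homeodomain motifs because Hox and Prrx proteins bind AT-rich cores. RefSeq promoters (GRCm38.p6, from upstream to just past the start) were at hand for 17 of the 26 genes and 7723 genes of the table. The core TAATTA, which reads the same on both strands, was present in 3 of 17 (17.6%), against 3.13% of the 7723. The pattern TGATNNAT of Pbx with Hox, searched on both strands, was present in 2 of 17 (11.8%), against 4.84%, and a base could belong to matches of both motifs. TATAAA, also on both strands, was present in 4 of 17 (23.5%), against 8.88%. The median GC content was 55.8% for the 17 and 60.8% for the 7723, so AT-rich letters are more frequent in the first set. The sites are printed below with the motif in capitals: those of Prrx1 (chr1:163313808-163313833), Hand2 (chr8:57320798-57320823) and Tbx6 (chr7:126781242-126781267) hold TAATTA, and that of Hoxa2 (chr6:52164925-52164952, on the strand opposite to the gene) holds TGATNNAT.
Prrx1: aagggaatgaTAATTAgacctttatt
Hand2: ccccccgtttTAATTAtcttatggtt
Tbx6: accgaggagtTAATTAtgtaatgagg
Hoxa2: actgtctgttTGATTGATccaaaaaagt
None of these 4 genes was called different between KO and WT.

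Genes that act on the Hox clusters gave no call. The counts of the 4 lists that follow stand beside 51.4% of all genes with a positive fold change, and 4.64% higher and 6.4% lower at an unadjusted p below 0.05, with a median of 0.02. Of 36 Polycomb and trithorax genes, which silence and keep active the Hox clusters, 27 had a row, 15 with a positive and 12 with a negative fold change and a median of 0.02. Without adjustment 0 were higher in KO at a limma p below 0.05 and 1 was lower, Phc1, a Polycomb subunit, with 18.5 ± 9.02 CPM in KO and 36.2 ± 7.93 CPM in WT (SD, n = 3 each; log2 fold change -1.02, SE 0.37, limma adjusted p = 0.358). The Polycomb cofactor Jarid2 followed with a log2 fold change of -0.59 (limma adjusted p = 0.469) and the methyltransferase Kmt2a with -0.73 (limma adjusted p = 0.493).

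Retinoic acid, made by Aldh1a enzymes and read by Rar and Rxr receptors, controls Hox genes in the embryo. Of 19 such genes 10 had a row, 6 with a positive and 4 with a negative fold change, with a median of 0.10, and 0 were called, with 1 above and 2 below in KO at a limma p below 0.05 without adjustment. The receptor Rarb had 29.0, 27.9 and 32.4 CPM in KO, against 54.0, 51.0 and 56.9 CPM in WT libraries, without overlap. Its log2 fold change was -0.85 (limma SE 0.22, adjusted p = 0.281), and 2020 of its exon bases lie opposite other genes. Aldh1a2, the main enzyme of the embryo, had 2.67, 19.1 and 2.45 CPM in KO, against 56.5, 57.9 and 11.7 CPM in WT libraries, and KO 2 was above WT 3. Its log2 fold change was -2.60 (limma SE 0.84, adjusted p = 0.322). The receptor Rarg had 29.8, 30.9 and 24.5 CPM in KO, against 20.7, 16.8 and 11.7 CPM in WT libraries, without overlap, with a log2 fold change of 0.80 (limma SE 0.32, adjusted p = 0.402).

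Signalling genes of the limb bud had a median of 0.48 over the 15 of 40 with a row, with 12 positive and 3 negative fold changes, 3 higher and 0 lower in KO at a limma p below 0.05 without adjustment, and 0 called. Grem1, the BMP antagonist of the limb bud, had 182, 118 and 144 CPM in KO, against 36.4, 19.8 and 38.7 CPM in WT libraries, without overlap, and its log2 fold change of 2.25 (SE 0.30) had a limma adjusted p of 0.0701. Gli3, the Hedgehog repressor that patterns the digits, had 26.7, 16.2 and 22.6 CPM in KO, against 9.42, 5.33 and 11.1 CPM in WT libraries, also without overlap, with a log2 fold change of 1.32 (limma SE 0.42, adjusted p = 0.315). The receptor Fgfr1 had a log2 fold change of 0.69 (limma SE 0.25, adjusted p = 0.356). Of 33 genes of joint interzone and skeletal condensation, 17 had a row, with a median of 0.04, 10 positive and 7 negative, 0 higher and 1 lower in KO without adjustment, and 0 called. The lower gene was the Wnt inhibitor Sfrp2, with a log2 fold change of -1.06 (limma SE 0.33, adjusted p = 0.315), and Wnt4 and Sox9 followed with -0.64 (limma adjusted p = 0.544) and 0.65 (limma adjusted p = 0.547). Kmt2a, Gli3, Fgfr1 and Sfrp2 share 378, 188, 164 and 347 exon bases with a gene on the other strand, so their values carry the same limit as Hoxa11.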

How the data were processed

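Primary articular chondrocytes were digested from cartilage with collagenase at 3 mg/ml and grown with 10% serum, and a stranded kit for total RNA made the libraries, per the labels. The build mm10 and the tools edgeR, StringTie 1.3.5, HISAT2 2.1.0, cutadapt 1.18 and bcl2fastq are listed, with no roles, in the submitters' processing notes. Annotation, strand setting and filter rule were not stated there. The authors deposited a signal per gene, read counts scaled to TMM-normalized CPM, per the name of the table. For every library 100% of the values were a whole number of steps (tolerance 0.001 reads; 0.382 to 0.762 CPM), so whole reads were recovered. The design, fixed for CPM, kept its test on the log scale. 0 columns were left unmapped, and 0 rows lacked a name. The column of KO 3 differs from its title by 1 character.

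The test of KO against WT was limma 3.58.1 under R 4.3.3, two-sided, fitted to log2(CPM + 0.5) for all 10189 genes with an intensity trend, and p-values were adjusted by Benjamini-Hochberg over the whole table. It called 0 genes higher and 1 lower. On recovered reads, edgeR 4.0.16 (quasi-likelihood) called 0 higher and 2 lower, DESeq2 (version 1.42.0) called 27 higher and 81 lower, and limma-voom called 0 higher and 1 lower. Symbols of 9814 rows (96.3%) matched GENCODE M21. The fits were tested on simulated counts with known changes. There limma called 7.4% of the 2-fold and 62.4% of the 4-fold changes, and edgeR 7.2% and 63.8%. Most 2-fold changes thus went without a call. Chi-square per degree of freedom between libraries of 1 genotype was 10.5 to 219, above sampling noise for each pair, so none was counted as a duplicate deposit; this does not show that they are separate mice.

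The genes and lists were chosen with earlier results of these data known. Values in every library are given for the 5 genes of smallest p per direction and a set of limb and Hox genes; up to 3 genes per list are named, by smallest p. Values of 2 genes are not reported here. Alternatives were other pseudocounts, scalings, limma settings, tests, a filter, a replicate block and leaving out libraries. Treating values listed at 0 as missing, leaving out the leading marker of a list, and the other Hox make-ups were added after the data were seen. Other steps used Python 3.11.15, numpy 2.4.6, pandas 2.3.3 and matplotlib 3.10.9.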

Additional observations from a re-analysis of the deposited data

How the results depend on the processing

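The number of patterning genes called was 0 of 26 in each of the 19 alternative fits. Over all genes the limma count of 0 higher and 1 lower became 7 higher and 25 lower without KO 2, 0 and 4 without KO 1, 7 and 3 without the intensity trend, and 27 and 81 with DESeq2. A filter at a mean of 20 CPM left 7 of the genes, and medians of families with under 3 genes were not computed there. With a replicate block 0 of 26 were called and 0 genes in all. Deviations of same-numbered libraries had correlations of 0.02, 0.07 and -0.06, against -0.10 to 0.09 for the other pairs. Noise in low counts draws such correlations toward 0, so they cannot decide whether the numbers pair libraries. The cause of the movements below was not tested.

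The median of the 26 genes was 0.50 without KO 2 and WT 1, and 0.033 to 0.44 leaving out 1 library. The median of the mesenchyme homeobox genes was 0.76, against 0.13 with edgeR, 0.16 with DESeq2, 1.54 without KO 2 and WT 1, 0.084 with values at 0 missing, and 0.14 to 1.40 leaving out 1 library. The median of the HoxC genes was 0.34 without KO 2 and WT 1, and -0.13 to 0.33 leaving out 1 library.

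The sign of the fold change turned in at least 1 alternative for 16 of 24 genes and in none for 8 (Pbx2 0.86 to 1.28, and Irx3 -1.22 to -0.56, over the fits). Shox2 was 0.023 with quantile scaling, 0.061 with plain CPM and 0.20 without KO 2 and WT 1. Without these libraries Pitx1 was 0.083, Hoxc8 0.60 and Tbx6 -0.24. Hoxc8 was 0.13 with edgeR and 0.14 with DESeq2, and Meis1 was -0.19 and -0.18. Tbx6 was -0.017 with a pseudocount of 2, -0.21 with quantile scaling, -0.23 with edgeR, -0.21 with DESeq2 and -0.076 with limma-voom. Hoxc11 was -0.15 with quantile scaling and -0.18 with limma-voom, and Barx1 was -0.24 with values at 0 missing. Plain CPM moved the median of all genes to 0.08. Leaving out 1 library gave -0.24 to 2.62 for Barx1, -0.10 to 0.53 for Hoxa10, -0.30 to 0.14 for Hoxa11, -0.34 to 0.020 for Hoxa2, -0.24 to 0.22 for Hoxa3, -0.11 to 0.64 for Hoxa9, -0.37 to 0.062 for Hoxc10, -0.19 to 0.35 for Hoxc11, -0.37 to 0.52 for Hoxc8, -0.24 to 1.10 for Meis1, -0.43 to 0.33 for Pitx1, -0.025 to 0.34 for Prrx1, -0.22 to 0.18 for Shox2, -0.21 to 0.46 for Tbx15, -0.63 to 0.61 for Tbx6 and -0.034 to 0.30 for Twist1. Depth limits the low genes: a value above 0 rested on 4 to 277 reads.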

Other observations

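Values listed at 0 stood apart from the low end of the reads. KO 1 to KO 3 held 92, 93 and 120 rows at 0, against 215, 305 and 146 in WT 1 to WT 3, while the rows with exactly 1 read numbered 1 to 4 per library and those with 2 reads 1 to 11. In all, 755 rows (7.41%) had a 0, 482 of them in WT libraries only and 185 in KO libraries only. Of the antisense genes of the Hox clusters, Hoxaas2 had 29.0, 10.3 and 20.2 CPM in KO 1 to KO 3, against 22.0, 32.8 and 22.3 CPM in WT 1 to WT 3, Hoxaas3 had 49.6, 20.6 and 48.9 CPM in KO, against 53.4, 36.6 and 38.7 CPM in WT, and Hoxd3os1 had 11.1, 6.86 and 12.8 CPM in KO, against 22.6, 12.2 and 11.7 CPM in WT. KO 2 was the lowest of the 6 libraries for each of these 3 antisense genes, as it was for Hoxa9, Hoxa10 and Hoxa11.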
